A study of Mus musculus with 3 samples.

Results

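The Sp100-Sp140 gene cluster of mouse chromosome 1 comprises 6 protein-coding genes, Sp100, Sp110, Sp140, Gm7592, Gm38510 and A530032D15Rik. It was described through the open chromatin windows of an ATAC-seq study of the mouse molar, taking every window with its midpoint inside one of the genes or within 10 kb of it, and every window of the megabase from 85 to 86 Mb of chromosome 1 (mm10). By the first rule 44 of 13500 windows belonged to the cluster, and by the second 49, which contain all of the 44. Of the 44 windows, 34 lay inside a gene of the cluster. The genes were chosen by the number of windows that they or their neighbours held, and the megabase for its windows. Window numbers, ranks and gaps are therefore given as a description without a test.

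ATAC-seq maps accessible DNA by the insertion of sequencing adapters by the Tn5 transposase. There were 3 libraries, each from 5000 cells of the collagenase-digested apical part of C57BL/6 first molars: 1 from Gli1-CreER;Arid1a fl/fl mutants and 2 from Arid1a fl/fl controls, which carry the floxed Arid1a allele without the Cre driver. The sources used here do not give the number of animals behind each library. Tamoxifen (1.5 mg per 10 g body weight) was injected at postnatal day 3.5 and the stage of the tissue was postnatal day 7.5. In Gli1-CreER mice the tamoxifen-activated Cre recombinase is made in cells that express Gli1, a hedgehog target gene, so Arid1a, which encodes a SWI/SNF chromatin remodeller subunit, is deleted in those cells and their descendants. The deposited tables pool the libraries: they give 201-bp windows and, within them, matches to the binding motif of the zinc finger factor Plagl1. No mutant against control value, read depth or replicate error exists for any window, windows of one locus are not replicates of each other, and no test was made. A motif match is a sequence feature and not a measurement of Plagl1 binding. How the regions were selected, and how reads that match several places in the genome were handled, are not given in the sources used here.

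Sp100, Sp110 and Sp140 are interferon-inducible nuclear proteins built from an N-terminal multimerisation domain and a DNA-binding SAND domain. Sp100 is a constituent of PML nuclear bodies, where it is modified by SUMO and restrains the expression of viral DNA. Sp110, also named Ipr1 in the gene table, was first described in mice as a determinant of resistance to intracellular bacteria. Sp140 adds a PHD finger and a bromodomain, modules that read histone tails, and is known mainly from immune cells. No role is given here for Gm7592, Gm38510 and A530032D15Rik, which are placed in the cluster by their position.

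Promoter sequences show how alike parts of the cluster are. RefSeq sequences (GRCm38.p6, 250 bases before to 50 after the annotated start) were matched for 4 of the 6 genes, Sp100, Sp110, Sp140 and A530032D15Rik. The Sp140 promoter (chr1:85600453-85600752, plus strand) and the A530032D15Rik promoter (chr1:85109804-85110103, minus strand) aligned over 271 bases, of which 270 were identical (99.6%). They are shown as a near-identical pair from different genes of the cluster. Capitals mark the bases identical in the other promoter, and the single mismatch stands in lower case among them.
Sp140: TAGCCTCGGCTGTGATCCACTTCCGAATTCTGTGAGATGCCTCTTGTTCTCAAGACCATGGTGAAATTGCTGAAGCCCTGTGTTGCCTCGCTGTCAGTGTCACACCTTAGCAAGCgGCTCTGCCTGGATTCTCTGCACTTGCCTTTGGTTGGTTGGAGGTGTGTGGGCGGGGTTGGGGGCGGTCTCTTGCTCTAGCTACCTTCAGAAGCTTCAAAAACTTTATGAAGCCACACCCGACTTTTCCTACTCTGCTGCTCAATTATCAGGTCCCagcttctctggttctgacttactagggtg
A530032D15Rik: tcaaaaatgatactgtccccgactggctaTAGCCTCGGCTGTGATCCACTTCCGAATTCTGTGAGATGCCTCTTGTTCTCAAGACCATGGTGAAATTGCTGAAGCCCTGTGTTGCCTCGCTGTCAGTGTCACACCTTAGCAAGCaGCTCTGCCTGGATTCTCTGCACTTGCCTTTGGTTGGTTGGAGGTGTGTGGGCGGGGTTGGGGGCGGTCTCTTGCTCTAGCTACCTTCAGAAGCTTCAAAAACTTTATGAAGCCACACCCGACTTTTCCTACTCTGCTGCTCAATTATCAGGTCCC

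The promoter of C130026I21Rik, a protein-coding gene that overlaps Gm38510, matched that of A530032D15Rik at all 279 aligned bases around a gap of 12 bases, and that of Sp140 at 254 of 255. The promoter of Sp100 (chr1:85649764-85650063, plus strand) likewise matched that of Gm7609 (chr1:85199361-85199660, plus strand), another gene within the span of Gm38510, at 293 of 298 aligned bases (98.3%). This pair is shown, with the same use of capitals, because it is the likeness that involves Sp100. No window overlapped any of the 4 promoters printed here.
Sp100: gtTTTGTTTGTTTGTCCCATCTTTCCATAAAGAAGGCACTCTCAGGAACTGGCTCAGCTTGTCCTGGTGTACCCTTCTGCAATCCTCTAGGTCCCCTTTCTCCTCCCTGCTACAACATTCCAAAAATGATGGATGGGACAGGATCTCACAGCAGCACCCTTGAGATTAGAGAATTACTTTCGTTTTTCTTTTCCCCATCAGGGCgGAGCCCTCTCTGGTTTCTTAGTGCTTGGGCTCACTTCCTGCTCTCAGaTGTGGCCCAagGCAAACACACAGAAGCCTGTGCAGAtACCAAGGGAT
Gm7609: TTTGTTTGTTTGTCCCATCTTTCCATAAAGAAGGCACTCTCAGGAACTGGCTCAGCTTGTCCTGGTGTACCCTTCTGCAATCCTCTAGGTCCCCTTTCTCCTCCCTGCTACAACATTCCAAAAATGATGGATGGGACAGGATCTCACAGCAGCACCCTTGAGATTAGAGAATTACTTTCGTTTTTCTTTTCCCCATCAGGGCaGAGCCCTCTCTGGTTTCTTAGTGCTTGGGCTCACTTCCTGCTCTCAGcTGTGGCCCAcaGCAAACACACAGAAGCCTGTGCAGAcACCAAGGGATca

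Of the 6 promoter entries of the cluster genes, 5 shared an unbroken stretch of 100 bases with the promoter of another gene, against 4.57% of the 32851 promoters in the table. The Sp100 entries, for annotated starts at 85649988 and 85650014, overlap each other and are counted separately among the 5. One of the 5, belonging to the annotated Sp110 start at 85603891, shared its stretch with genes on other chromosomes and with none of the cluster. Reads from identical stretches cannot be told apart between copies. Whether the windows lie in such stretches was not examined, so the window numbers of the genes below could be uncertain between copies. The part of this similarity in the results was not tested.

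Windows per gene ran from 1 to 16. Sp100, a gene of 60051 bp on the plus strand (chromosome 1, 85649948 to 85709998), had 1 window (chr1:85703634-85703834), which lay 53720 bp downstream of its nearer annotated start. That window was the richest in G and C of those inside Sp100, Sp110 and Sp140, with a GC content of 55.7% and 3.5 CpG dinucleotides per 100 steps between neighbouring bases. No window lay within 20 kb of either annotated Sp100 start, the closest being 24517 bp upstream, inside Sp140. Sp100 therefore stood apart from the other 5 genes, which each had at least 7 windows.

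Sp110 (85570735 to 85610850, minus strand) and Sp140 (85587491 to 85645040, plus strand) overlap and run in opposite directions. Sp110 had 7 windows by the 10-kb rule and Sp140 had 9, and all 7 of Sp110 were also counted for Sp140. Inside the gene bodies Sp110 had 5 windows and Sp140 had 8, of which 4 were in both. The GC content of the Sp140 windows ran from 37.3% to 53.2% with a median of 45.3%, and the Sp110 windows had the same lowest, median and highest values. A pair of windows lay close to the starts of these genes: one (chr1:85599415-85599615) was centred 705 bp upstream of an Sp110 start and 1188 bp upstream of the Sp140 start, and the other (chr1:85604265-85604465) 474 bp upstream of the other Sp110 start and 3662 bp downstream of the Sp140 start. These were the only 2 of the 44 windows within 1.5 kb of an annotated start of Sp100, Sp110, Sp140 or A530032D15Rik, while Gm7592 and Gm38510 have no strand or start in the tables used here. Their GC contents were 53.2% and 48.3%, with 1 CpG per 100 steps in each.

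Gm38510 (85155201 to 85309015, 153815 bp) had 16 windows by the 10-kb rule and 12 inside, the highest number of all 21900 protein-coding genes by either count. Among the 6 genes the windows of Gm38510 spanned the widest range of base composition, from 29.9% to 63.2% GC with a median of 47.0%. Of the 12 inside, 4 also lay inside C130026I21Rik, including the window centred 404 bp downstream of the C130026I21Rik start (chr1:85270062-85270262, GC 55.7%). Gm7592 (85326832 to 85555681, 228850 bp) had 8 windows and 7 inside, between 44.8% and 62.7% GC with a median of 48.3%. Those of Gm7592 were split by the longest gap of the cluster, 136034 bp, with 4 of the 7 at the end next to Gm38510 inside the pseudogene Gm7281.

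A530032D15Rik (85088139 to 85110297, minus strand) is the shortest of the 6, with 22159 bp, and had 10 windows by the 10-kb rule and 5 inside. It thereby held 23.7 windows per 100 kb of gene and flanks, against 11.6 for both Sp110 and Sp140, 9.21 for Gm38510, 3.21 for Gm7592 and 1.25 for Sp100. The GC content of the A530032D15Rik windows ran from 37.8% to 52.7% with a median of 47.3%. The window centred 3615 bp downstream of its start (chr1:85106138-85106338, GC 48.8%) overlapped the promoter of the long noncoding RNA gene A530040E14Rik. That promoter ends at 85106142, so the overlap was confined to the first few bases of the window. The windows nearest to the near-identical starts did not lie at one common distance: the closest was 1188 bp upstream for Sp140, 2562 bp upstream for A530032D15Rik and 404 bp downstream for C130026I21Rik. Median GC content differed between the genes with several windows by less than the range within each of them.

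**Figure D1:**
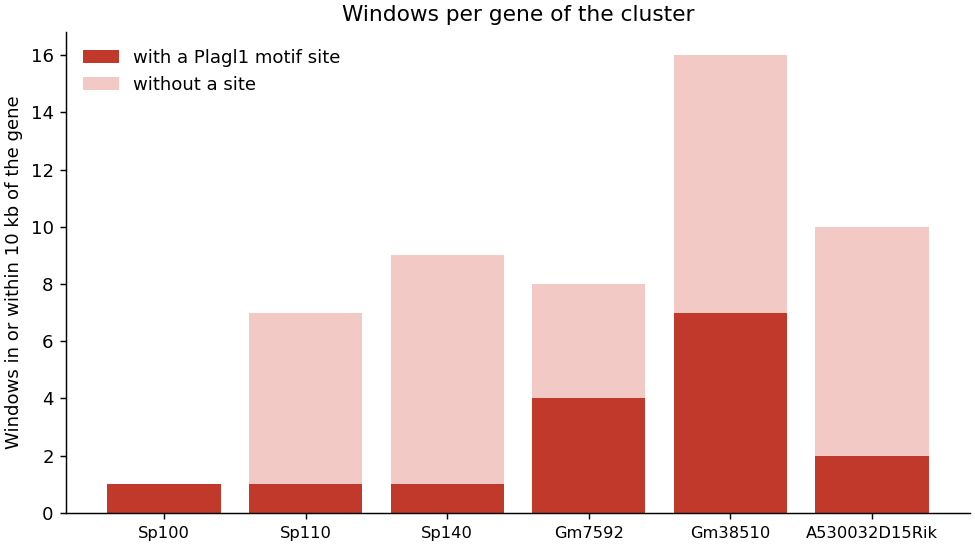
Windows in or within 10 kb of each gene of the cluster (bar height, number of windows), split into those with and without a match to the Plagl1 motif. Gm38510 had 16 windows and Sp100 had 1. The 7 windows of Sp110 are among the 9 of Sp140.

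At least 5 windows lay within 10 kb of 5 of the 6 genes, where 0.247% of protein-coding genes had as many, and at least 5 lay inside the same number of genes, where 0.0639% did. All 6 had at least 1 inside, against 41.5%. The rule used these numbers, so nothing is read from them. The non-member genes with the most windows by the 10-kb rule were Tex14, a gene of germ cell bridges on chromosome 11, with 10, and A530040E14Rik, Bcas3, Duxf3 and Gm2619 with 7 each, the last 4 taken in alphabetical order among ties. A530040E14Rik and the pseudogene Gm2619 lie in the same megabase as the cluster and share windows with it. Of the others, the windows of Tex14 had a median GC content of 52.0% and 5.25 CpG per 100 steps, those of Bcas3 51.7% and 2.5, and those of Duxf3, a double homeobox gene, 55.7% and 1.5, so that each was above the Gm38510 medians of 47.0% and 1.

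The windows formed dense groups. The genes were chosen by window number, which favours short gaps, so the spacing is a description only. Neighbouring windows of the 44 were separated by a median of 5899 bp (interval 4025 to 7625 bp), against 55788 bp for all other neighbouring windows. Of the 43 gaps 33 were under 10 kb (76.7%), against 11.5% elsewhere, and 5 were under 1 kb. With windows joined when less than 30 kb apart, the 3 largest groups were 16 windows over 81916 bp from inside Gm38510 to the neighbouring end of Gm7592, 11 windows over 40012 bp around A530032D15Rik, of which 1 lay beyond its 10-kb flank, and 9 windows over 40630 bp in Sp110 and Sp140. Of the 16 windows 4 lay between Gm38510 and Gm7592, inside neither gene. The 3 windows in the part of Gm7592 away from Gm38510 and the single window of Sp100 stood apart from these groups. So did further windows of Gm38510: 4 over 39044 bp from 85147670 to 85186713, and 1 at chr1:85231196-85231396.

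**Figure D2:**
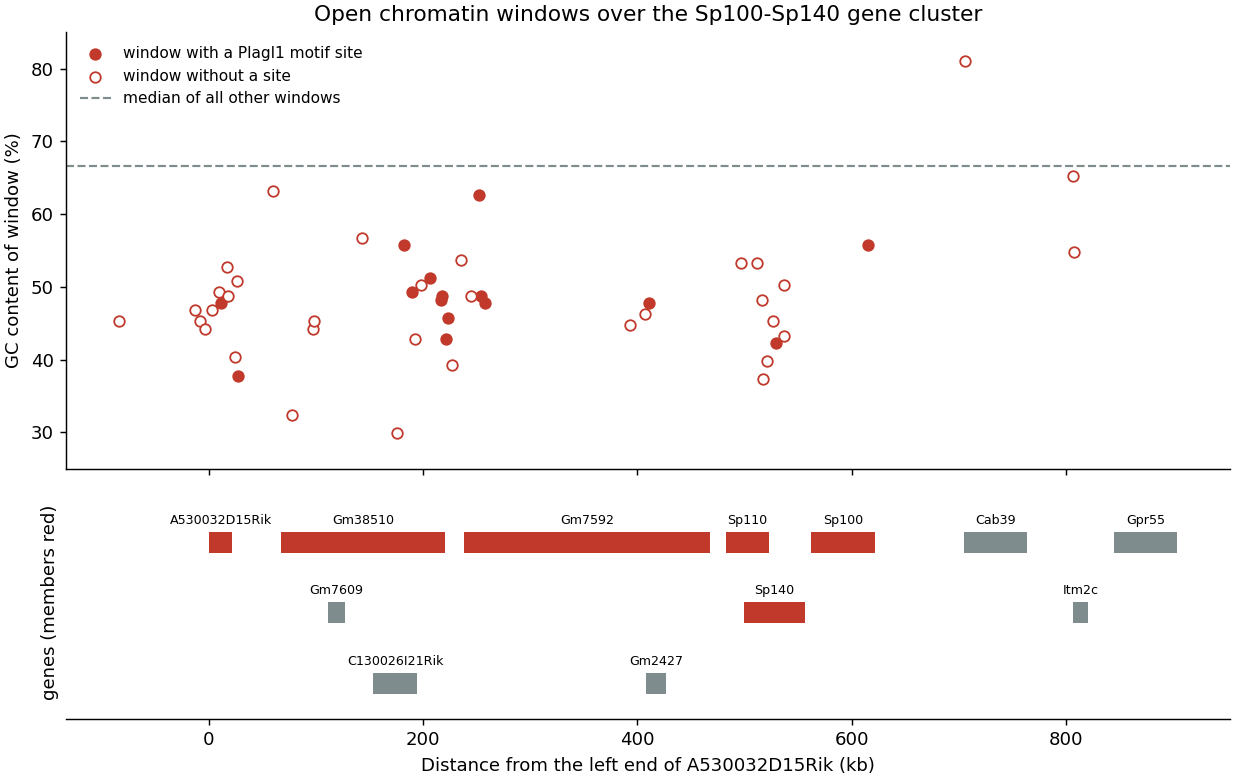
GC content (%) of the 49 windows of the megabase against their distance from the left end of A530032D15Rik (kb), with filled points for windows with a Plagl1 motif site, and the genes below to scale. The windows over the red genes lie between 29.9% and 62.7% GC, below the dashed median of 66.7% of all other windows, and the window of Cab39 stands at 81.1%.

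The megabase from 85 to 86 Mb held the most windows of all 2019 megabases with any, 49 against 47 in the next, where the median megabase held 5. It was chosen for its windows, so this rank is a description only. The megabase before it held 5 windows and the one after it 15. With the borders shifted by 500 kb the cluster was divided, and the 2 megabases over it held 40 and 23 windows. Most other dense megabases were rich in G and C. Among the 103 megabases with at least 20 windows, the median GC content of the windows was 47.8% here, against a median of 65.7% over these megabases. Only 3 of the 103, with this one among them, were below 50%. In the next 5 by window number, on chromosomes 11, 19, 10, 7 and 10, median GC content lay between 61.2% and 66.2% and median CpG content between 7 and 10 per 100 steps, against 1 here.

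**Figure D3:**
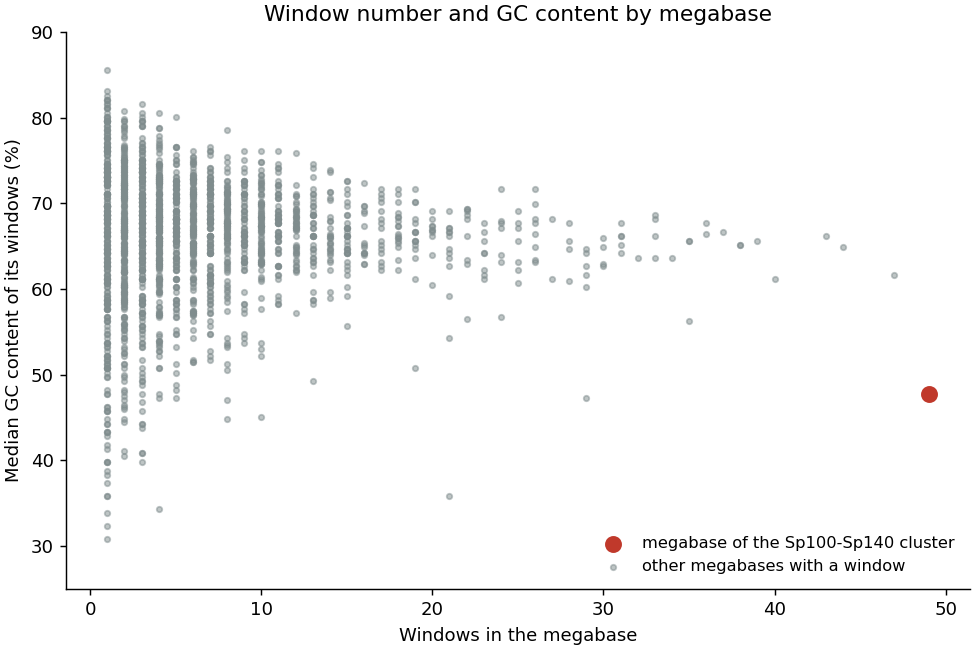
Number of windows in each megabase of the genome (x axis) against the median GC content of those windows (y axis, %). The megabase of the cluster, in red, has 49 windows and a median of 47.8%, and is 1 of the 3 below 50% among the 103 with at least 20 windows.

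The windows of the cluster were poor in G and C, and in CpG, beside the other windows of the series. The median GC content of the 44 windows was 47.8% (interval 45.3 to 48.8), against 66.7% (66.2 to 66.7) in all other windows and 67.2% in the other windows of chromosome 1. GC content was under 50% in 31 of the 44 (70.5%), where 7.84% of all windows were. CpG content had a median of 1 per 100 steps (interval 0.5 to 1), against 9 in all other windows, and 41 of 44 had 2.5 or less (93.2%), where 12.4% of all windows did. No CpG at all was present in 8 windows (18.2%), against 1.18% of the others. Windows away from the outer ends of protein-coding genes were lower in GC content in general. Among the 4377 other windows more than 1 kb from such an end, inside genes or outside them, the medians were 60.2% GC and 5 CpG per 100 steps. CpG-rich windows are typical of promoters in CpG islands, which in mammals usually stay unmethylated and open.

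**Figure D4:**
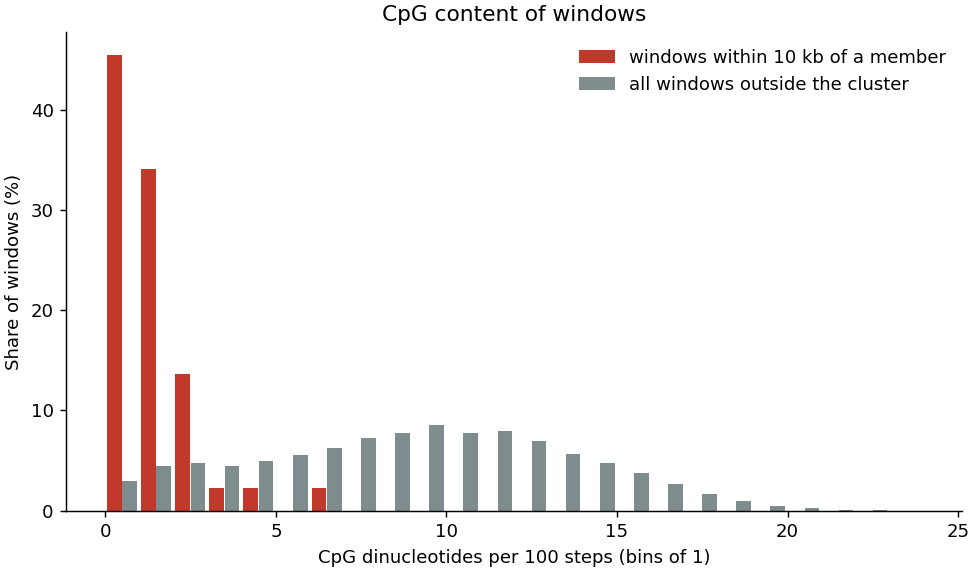
Share of windows (%) by CpG dinucleotides per 100 steps, in bins of 1, for the 44 windows within 10 kb of a cluster gene (red) and for all windows outside the cluster (grey). In the cluster 45.5% of windows fall in the lowest bin, against 2.94% of the others, and the highest cluster value is 6.

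Few windows of the cluster lay at the outer ends of genes, taken as the lowest and highest coordinate of each gene in the gene table. Of the 44 windows 1 (2.27%, exact 95% interval 0.0575 to 12.02) lay within 1 kb of such an end of a protein-coding gene, the window at the end of Gm38510 (chr1:85309515-85309715), where 67.2% of all windows did. The windows near the annotated starts of Sp110 and C130026I21Rik described above are not in this count, since these starts lie inside the outer ends. Likewise 1 of 44 overlapped a RefSeq promoter, that of A530040E14Rik described above, where 50.2% of the 13114 windows on chromosomes with promoter sequences did. The gene table holds no exons, so whether a window inside a gene was exonic or intronic was not determined.

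The 5 remaining windows of the megabase lay outside the 10-kb flanks. The 3 with the highest coordinates lay within 1 kb of the outer end of a protein-coding gene, as 67.2% of all windows did. None of these 3 overlapped a RefSeq promoter. Cab39, a scaffold of the LKB1 kinase complex, had a window centred 216 bp downstream of its start (chr1:85793557-85793757, GC 81.1%, 17.5 CpG per 100 steps). Itm2c, a membrane protein gene, had windows centred 168 and 984 bp downstream of its start. Their GC contents were 65.2% and 54.7%, with 8.5 and 2 CpG per 100 steps. The GC content of the second was below the lower quartile of all other windows, 59.2%. The other pair, beyond the 3′ end of A530032D15Rik, resembled the cluster with 45.3% and 46.8% GC, and the second of these lay inside the pseudogene Gm18342. None of the 5 held a motif site. Just outside the megabase, 3 windows between 84986274 and 84992636 had 42.3% to 47.3% GC and up to 1 CpG per 100 steps, and the first window beyond the other border, at 86059405, had 53.7% and 3.5. Windows also lay inside the pseudogenes Gm35498, Gm7281, Gm2619 and Gm2666 and the coding gene Gm2427. In all 10 of 23 other genes of the megabase had a window inside, and 13 had none.

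Matches to the Plagl1 motif were about as frequent in the cluster as elsewhere. Of the 44 windows 15 held a site (34.1%, exact 95% interval 20.5 to 49.9, counting error only), where 32.9% of all windows did. The sites numbered 17, and 2 windows held a pair. Their scores, HOMER log-odds values whose log base is not stated, had a median of 5.99 (interval 5.78 to 6.06), against 5.94 (5.93 to 5.97) for all other sites, and ran from 5.51 to 6.78, against 5.51 to 7.74 elsewhere. Because GC content goes with site frequency, the share was also taken by class of GC content. It was 3 of 14 cluster windows (21.4%, interval 4.66 to 50.8) against 16.8% of other windows under 45% GC, 8 of 17 (47.1%, 23.0 to 72.2) against 26.1% from 45 to 50%, 1 of 8 (12.5%, 0.316 to 52.7) against 28.3% from 50 to 55%, and 3 of 5 (60%, 14.7 to 94.7) against 34.3% at 55% or more. Each interval of the cluster contains the share elsewhere. The intervals cover counting error only and the windows are not replicates of each other, so a difference was not tested.

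The sites were unevenly spread over the genes. Sites were present in 7 of 16 windows of Gm38510, with 8 sites, and in 4 of 8 windows of Gm7592, with 5 sites. A530032D15Rik had them in 2 of 10 windows, and Sp110 and Sp140 shared 1 window with a site, out of 7 and 9. The only window of Sp100 held 1 site. The dense group of 16 windows across the neighbouring ends of Gm38510 and Gm7592 held 12 of the 17 sites, in 10 windows. This unevenness was seen after the values were known and was not tested.

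The following sites show the range of the matches. Each is 10 bases long, written 5′ to 3′ on the motif strand, with capitals at positions 4 to 7, the G-rich core of the motif, which has G or A at position 5. The 4 highest-scoring sites lay in Gm7592 (chr1:85342328-85342337, chr1:85499031-85499040 and chr1:85345570-85345579, scores 6.78, 6.55 and 6.46) and beside Gm38510 (chr1:85311475-85311484, score 6.46). The highest was above 92.4% of all 5753 sites. The pair from the window near the start of C130026I21Rik (chr1:85270153-85270162, plus strand, score 5.99, and chr1:85270157-85270166, minus strand, score 5.99) overlaps on opposite strands. The sites of Sp140 (chr1:85617707-85617716, score 5.52) and Sp100 (chr1:85703691-85703700, score 5.91) are the only ones in these genes.
Gm7592, highest score: tatGGGGgcc
Gm7592, inside Gm2427: tgaGGGGcca
Gm7592, inside Gm7281: cagGAGGcct
Gm38510: tcaGAGGccc
C130026I21Rik, plus strand: tcaGGGGcct
C130026I21Rik, minus strand: ttgGAGGccc
Sp140: tgaGGGGctt
Sp100: tctGAGGcac

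No site sequence occurred more than once in the cluster, so all 17 were distinct. A at position 5 was present in 9 of 17 (52.9%), against 44.8% of all other sites, and C at position 8 in 15 of 17 (88.2%), against 89.3%. The motif lay on the plus strand in 11 and on the minus strand in 6. The sequence tatGGGGgcc occurred at 2 sites of the whole list, and the Sp100 sequence at 8. One site, at chr1:85294727-85294736 in Gm38510 with a score of 6.00, had a sequence found nowhere else in the list.

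**Figure D5:**
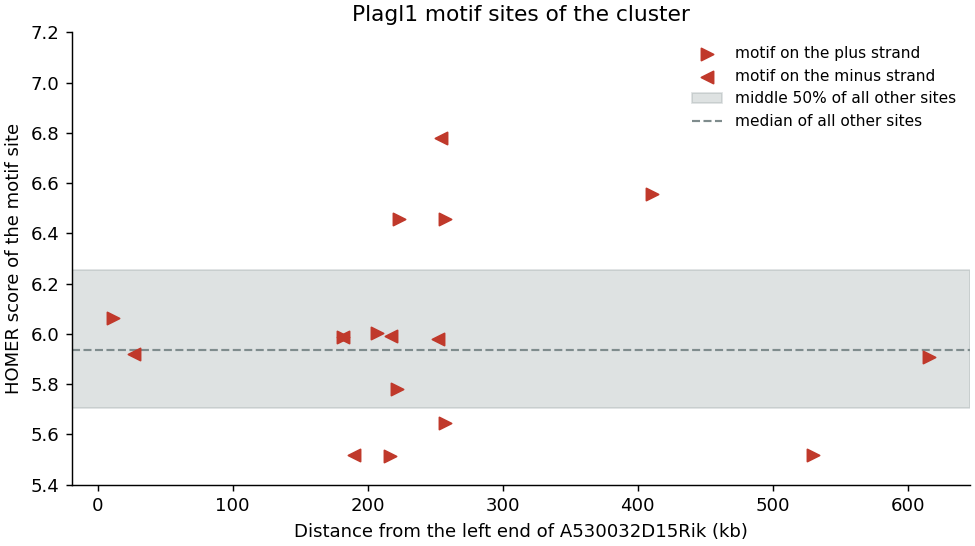
HOMER score of the 17 Plagl1 motif sites of the cluster (y axis) against distance from the left end of A530032D15Rik (kb), with arrowheads for the strand of the motif. The band and dashed line give the middle 50% and the median (5.94) of all other sites, and 4 sites stand above the band.

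The promoters themselves were searched for the 642 site sequences seen in the list, on both strands and allowing overlaps. The near-identical promoters of Sp140, A530032D15Rik and C130026I21Rik all held the same match, caaGAGGcat, on the strand opposite to the gene. Its base farthest upstream lay 214 bases before the start in Sp140, 185 in A530032D15Rik and 176 in C130026I21Rik. One of the 2 Sp110 promoters held tcaGGGGcac, and neither Sp100 promoter held a match. In all 3 of the 6 promoter entries of cluster genes held one, where 38.9% of the table's promoters did. None of these matches lay in an open window of the list.

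Lists of genes related to Sp100 and Sp140 were set beside the cluster. All 15 listed PML nuclear body partners had a window by the 10-kb rule, where 59.5% of protein-coding genes did, and 6 had one with a motif site, where 25% did. They included Pml, the scaffold of the bodies, with 3 windows, the histone chaperone Daxx with 2 and its partner Atrx, a chromatin remodeller, with 1. The median number of windows in this list was 1 and the highest 3. The gene medians of window GC content in the cluster were 55.7% for Sp100 and 45.3% to 48.3% for the other 5 genes. Those of the PML nuclear body partners ran from 54.5% to 79.6%, a range that contains the Sp100 value and lies above the others. The position of windows relative to gene ends was not matched between the cluster and this list or those below. As given above, windows away from the outer ends of protein-coding genes were lower in GC content in general.

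Of the 6 other SAND domain genes 5 had a window by the 10-kb rule, where 59.5% of protein-coding genes did. The signalling corepressor Ski had 5 windows and Gmeb1 had 3, while Aire, the regulator of self-antigen expression in the thymus, had 0. All 8 listed PHD and bromodomain readers had a window, led by Trim28, the corepressor of KRAB zinc finger proteins, and Baz2a, with 4 each. Of 11 interferon response genes 7 had a window (63.6%), near the 59.5% of protein-coding genes. Irf1, Isg15 and Bst2 had 2 each. Ifit1, Ifit3, Oas1a and Mx1, the last annotated as a transcribed pseudogene in this assembly, had 0. A window with a motif site was present for 2, 4 and 1 genes of these 3 lists, where 25% of protein-coding genes had one. The single Sp100 window, at 55.7% GC, was above the lowest gene median of the interferon list, 54.7%. It was below the lowest of the SAND and reader lists, 56.7% and 68.2%. The medians of the other 5 cluster genes were below the lowest of each of these lists. By the same rule the genes that the series concerns had 4 windows for Arid1a and 1 each for Plagl1 and Gli1.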

How the data were processed

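ATAC-seq was made on 3 libraries, and the submitters' processing notes name the aligner Bowtie2 2.3.5, the peak caller MACS2 2.1.1, cutadapt 1.18, FastQC, edgeR, bedtools, Picard and mm10. Per the file headers, the authors ran HOMER's annotatePeaks program on a union list of peaks, with the Plagl1 motif, in windows of 201 bp around each centre. GC and CpG content were deposited as a fraction, and are given here as percent and per 100 steps. Each site's deposited score is HOMER's log-odds score. Every annotated site had its entry in the deposited site list. Depth per library is unknown, so nothing here has a replicate error.

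Computed here, with Biopython 1.88, pandas 2.3.3, scipy 1.17.1 and Python 3.11.15, were the windows in and within 10 kb of each gene (from RefSeq genes on GRCm38.p6, which mm10 is built on), megabase counts, gaps, and local alignments of promoters (match 1, mismatch -1, gap opening -3, extension -1). Counting and assignment were tested on simulated windows. Shares have exact Clopper-Pearson 95% intervals and medians have order-statistic 95% intervals, which cover counting error only. The groups of samples were not compared. The genes and lists were chosen with earlier results of these data known. Named genes are the members, genes of the megabase with a window, the 5 non-members with the most windows, Arid1a, Plagl1 and Gli1, and the lists, of which 1 gene is not reported here. Gm7609, Zfp978 and 6820431F20Rik were chosen after their values were seen. Distance, tile, score minimum and repeated composition were varied.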

Additional observations from a re-analysis of the deposited data

How the results depend on the processing

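With windows assigned at 0, 1, 3 or 50 kb in place of 10 kb, the number of cluster windows lay between 34 and 45, the median GC content between 47.8% and 48.3%, the median CpG content between 0.5 and 1 per 100 steps, the share with a site between 33.3% and 37.8% and the median gap between 5837 and 6412 bp. The number per gene depended on it more: A530032D15Rik had 5 at 0 and 1 kb and 6 at 3 kb, and at 50 kb Sp100 had 8, Gm7592 had 21 and Gm38510 had 26. Counting windows of the same GC and CpG content once left 40 cluster windows and 44 in the megabase. The count of the megabase depended on where its borders fell. In megabases shifted by 500 kb, the one starting at 84500001 held 40 windows and was the third densest, while the one starting at 85500001 held 23. The densest 500-kb piece held 36 and ranked first, and the 2-Mb piece held 54 and ranked eighth. The share of cluster windows with a site was 13.6% with a minimum score of 6, against 16.0% of other windows, and 4.55% with 6.5, against 6.30%. No paired analysis was possible because the tables hold no values per library. Depth is unknown. The share with a site rests on only 44 windows that are not replicates of each other, so a difference in it was not tested.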

Other observations

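Other megabases combined many windows with low GC content. Apart from the Sp100-Sp140 cluster, those with at least 20 windows and a median under 50% were on chromosome 8 from 20000001 to 21000000, with 29 windows, a median GC content of 47.3%, 1 CpG per 100 steps and a motif site in 12 windows (41.4%), and on chromosome 9 from 3000001 to 4000000, with 21 windows, 35.8%, 2 CpG per 100 steps and a site in 3 windows (14.3%). In the first, 6820431F20Rik had the most windows inside a gene, 3. The megabase of the zinc finger gene Zfp978, on chromosome 4 from 147000001 to 148000000, had 19 windows with a median of 50.7%, of which 7 lay inside Zfp978, and a site in 6 (31.6%). Duxf3, on chromosome 10, had 29.7 windows per 100 kb of gene and flanks, against 23.7 for A530032D15Rik.

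Within the megabase, 4 combinations of GC and CpG content occurred in more than 1 window, 1 of them in 3 windows. Among these, the window 474 bp upstream of an Sp110 start and a window of Gm38510 at chr1:85304587-85304787 both had 48.3% GC and 1 CpG per 100 steps. The second held a motif site and the first did not. The bases of the windows were not used here, so likeness of sequence was not examined.

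Of the 3 windows just before the megabase, one at chr1:84986274-84986474 held a motif site with a score of 7.34, above the highest score of the cluster, 6.78.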
